A study of Mus musculus with 4 samples.

Results

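Ribosome biogenesis and RNA polymerase I genes were followed in Ba/F3, a mouse pro-B cell line that depends on the growth factor interleukin-3 (IL-3). The genes were a list of 50 symbols, and a gene counted as measured if at least 1 probe set of the array was annotated with that symbol alone. This held for 48 of the 50, out of 19935 genes in all, and Ppan and Noc2l are not analysed here. Gene choice used function and not the values of these arrays, although it was made with earlier results of these data known. The 48 genes fall by role into 16 small subunit genes, 14 large subunit genes, 8 genes of the box C/D and H/ACA particles, 6 polymerase I genes and 4 nucleolar genes that act at several steps.

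Ribosomes are assembled in the nucleolus. RNA polymerase I copies the ribosomal DNA into a long precursor RNA, small nucleolar ribonucleoproteins guide its chemical modification, and assembly factors fold, cut and package it into the small and the large ribosomal subunit. The work is costly for a cell and rises with growth, and MYC is a well-known activator of many of the genes involved. In chronic myeloid leukaemia the fusion kinase BCR-ABL is always active, and in Ba/F3 cells it can take the place of IL-3 in sustaining growth.

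RNA was measured on 4 Affymetrix Gene 1.0 ST arrays. Parental Ba/F3 cells grown with IL-3 gave 1 array. Ba/F3 cells with a doxycycline-inducible BCR-ABL, kept in 500 ng/ml doxycycline, supplied the other 3 arrays, of which the pair A and B came from medium lacking IL-3 and the last from medium containing it. All cultures were in logarithmic growth, and the design asked which genes the kinase and the growth factor drive with regard to imatinib resistance. Whether A and B were separate cultures is not stated in the labels. The p-values therefore reflect only how far these arrays spread, and that spread may be technical.

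Every deposited value is a log2 difference from the parental array, whose own value is 0 for all 28815 probe sets, so neither levels between genes nor the presence of lineage markers could be checked. The base of the logarithm is not stated and was taken as 2, and every fold rests on that. The median over all probe sets was -0.0016 on A, -0.064 on B and 0.0029 on the array with IL-3. All 3 BCR-ABL arrays differ from the parental one by the kinase, the drug that induces it and the derived line, which cannot be told apart. A and B also lack IL-3, a difference that the remaining BCR-ABL array separates, with 1 sample. Precision is limited by having 4 arrays, and fewer cells of a kind and less RNA per cell cannot be told apart in bulk RNA.

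Transcripts of ribosome biogenesis were higher when BCR-ABL stood in for IL-3. By limma, at a Benjamini-Hochberg adjusted p under 0.05, 34 of the 48 were higher and 0 lower, while 5.19% of all genes were called higher and 2.87% lower. The median difference of the 48 genes from the parental array was 0.69 on A, 0.74 on B and 0.71 for their mean (log2), beside -0.04 over all genes. On both A and B the value lay above the parental one for 44 of the 48 genes, against 27.9% of all genes. The gap reached 2-fold on both arrays for 4 genes, Rrp9, Mrto4, Bop1 and Nolc1, against 0.903% of all genes. With array medians over all probe sets subtracted, 23 of the 48 stayed past the threshold, against 1.93% of all genes, although the median rose to 0.75. With medians over the tested genes subtracted, a choice made after seeing the data, 30 stayed, against 637 of all 19935 genes called higher. The 11 genes that lost the call in the first of these were Nop14, Utp18, Bms1, Wdr43, Ddx18, Rrs1, Nop16, Noc3l, Nhp2, Polr1b and Polr1a. The p-values rest on 1 residual degree of freedom per gene, which is how far B lies from A. This is weighed with the spread pooled over all genes, which counts for 16.4 degrees of freedom. A gene's own gap between A and B thus had little weight. The SE was 0.15 for Rrp9, with a gap of 0.001, and 0.19 for Npm1, with a gap of 0.52. The single parental array is assumed to vary like the pair A and B. A deviation of the parental array itself would shift all 3 other arrays alike.

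**Figure D1:**
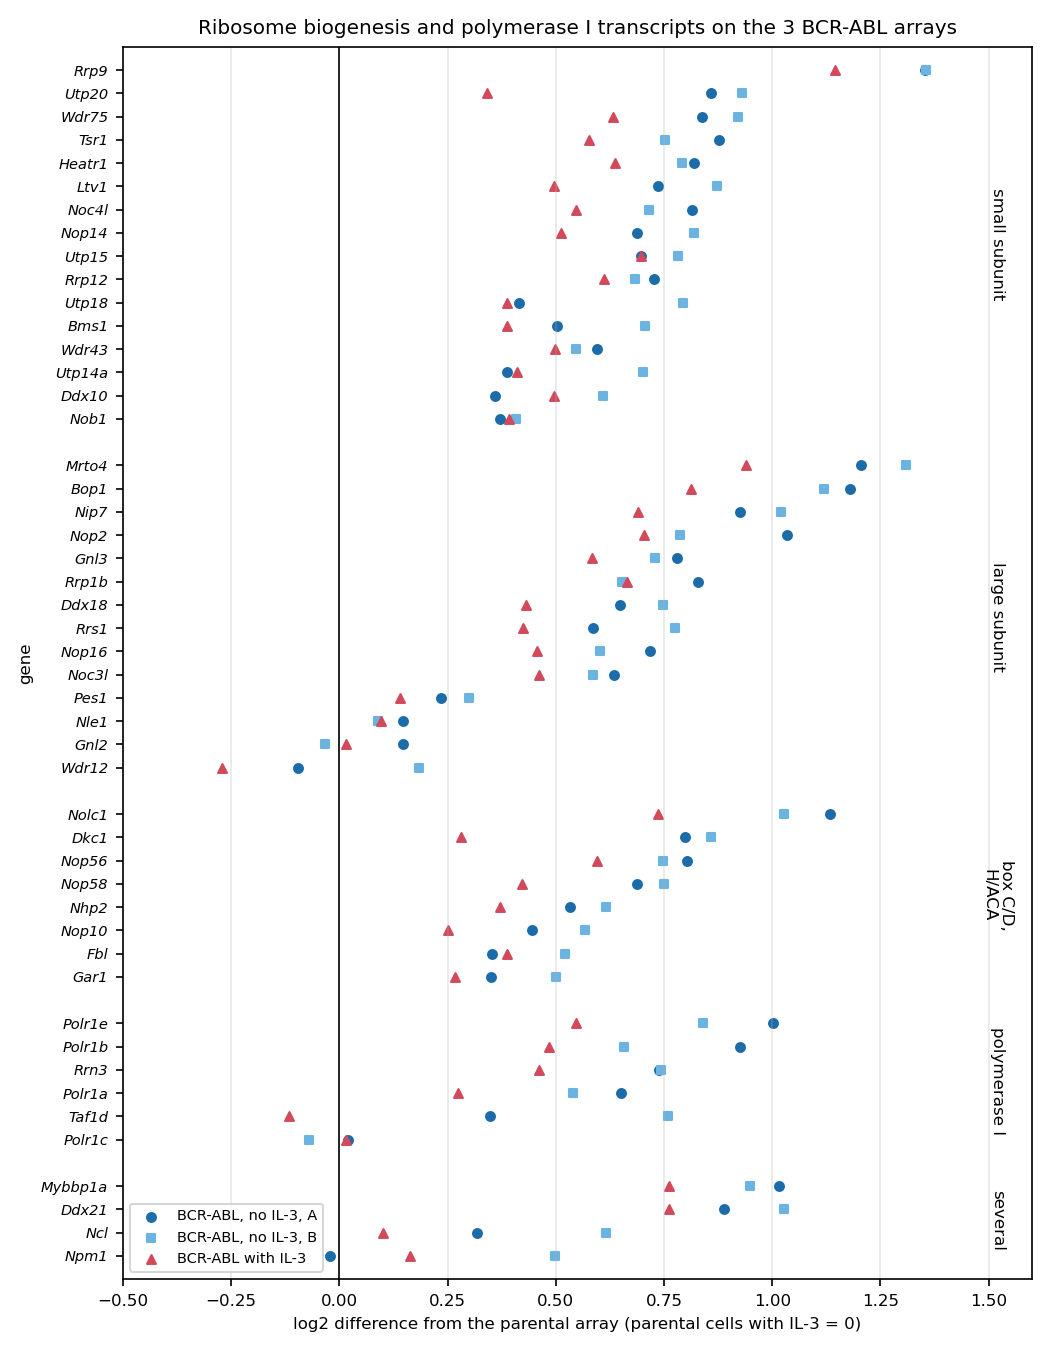
Log2 difference from the parental array (x axis) of each of the 48 genes (y axis), by role, on A (dark circles), B (light squares) and the BCR-ABL array with IL-3 (red triangles). Most points lie right of 0, and the red triangle lies left of both blue points for 39 of the 48 genes.

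Promoter sequence is shown because 34 of the 48 genes were called higher, and whether they share a regulator was not tested. RefSeq promoters (build GRCm38.p6, 250 bases before to 50 after the start) were given for 42 of the 48 genes. The E-box CACGTG, the element that MYC and related factors bind and which reads the same on both strands, was searched, as was the ETS core CCGGAAG on both strands. CACGTG was found in 10 of the 42 promoters (23.8%), against 8.09% of the 27025 genes with a promoter in the table. In the 250 bases before the start the shares were 7.14% and 6.86%, and in the 50 bases after it 16.7% (7 of 42) and 1.28%. CCGGAAG was found in 15 of the 42 (35.7%), against 9.93% of all. The table of all genes also holds non-coding genes, and base composition was not matched. These matches are a description of letters and show no binding.

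The 3 genes with CACGTG before the start were Rrn3, Nop2 and Utp18. Beside them Nolc1, with CCGGAAG alone, and Rrp9, the gene with the largest increase and with neither motif, serve for contrast. Each stretch holds the 110 bases just before the start, 5′ to 3′ on the gene's strand, with complete matches in capitals. They lie at chr16:13780589-13780698 (plus strand) for Rrn3, chr6:125131773-125131882 (plus) for Nop2, chr11:93885767-93885876 (minus) for Utp18, chr19:46075737-46075846 (plus) for Nolc1 and chr9:106477199-106477308 (plus) for Rrp9.
Rrn3: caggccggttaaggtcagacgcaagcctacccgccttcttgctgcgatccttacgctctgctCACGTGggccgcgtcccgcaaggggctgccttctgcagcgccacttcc
Nop2: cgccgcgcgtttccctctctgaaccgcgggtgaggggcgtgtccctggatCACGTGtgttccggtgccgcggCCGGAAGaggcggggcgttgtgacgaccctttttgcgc
Utp18: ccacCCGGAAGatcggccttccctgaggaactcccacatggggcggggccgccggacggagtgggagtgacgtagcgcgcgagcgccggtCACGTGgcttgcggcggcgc
Nolc1: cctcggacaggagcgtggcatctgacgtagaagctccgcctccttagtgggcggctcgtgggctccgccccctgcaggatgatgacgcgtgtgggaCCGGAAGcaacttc
Rrp9: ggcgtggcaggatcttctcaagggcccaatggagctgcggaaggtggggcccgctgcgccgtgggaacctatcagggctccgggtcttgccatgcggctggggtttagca

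The values of genes with and without CACGTG overlapped widely. The median difference of A and B from the parental array was 0.77 over the 10 genes with it, of which 8 were called higher, and 0.73 over the 32 without it, of which 23 were called, and the difference was not tested. The 7 genes with CACGTG in the 50 bases after the start were Ltv1, Mybbp1a, Nle1, Pes1, Tsr1, Utp20 and Wdr43. Of these Nle1 and Pes1 did not pass the test.

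Polymerase I was represented by 4 subunits, the initiation factor Rrn3 and Taf1d, a component of the promoter selectivity factor SL1. Of the 6 genes 4 were called higher and 0 lower, and the median was 0.67. Polr1e, a subunit of the peripheral part of the enzyme, stood at 1.00 on A, 0.84 on B and 0.55 on the array with IL-3. It was the highest of the 6, 1.89-fold above the parental level by the mean of A and B (log2 0.92, SE 0.16, adjusted p = 0.000815). Polr1b, the second largest subunit, stood at 0.92 on A, 0.66 on B and 0.48 with IL-3, a mean rise of 1.73-fold. Rrn3, which brings the polymerase to the promoter, stood at 0.74 on both A and B and at 0.46 with IL-3. Polr1a, the largest and catalytic subunit, stood at 0.65, 0.54 and 0.27 and rose 1.51-fold. For each of these 4 genes the array with IL-3 lay below both arrays without it and above the parental array. Polr1c is shared with polymerase III, and it stood at 0.02 on A, -0.07 on B and 0.01 with IL-3, on both sides of the parental level, and its mean turned from -0.03 to above 0 under either centring.

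Taf1d was the gene whose probe sets differed most. The 9 probe sets with this symbol gave a mean of 0.35 on A, 0.76 on B and -0.12 with IL-3, and the gene did not pass the test (log2 0.55, SE 0.17, adjusted p = 0.063). The 1 probe set annotated with a RefSeq messenger RNA stood at 0.56, 0.76 and 0.25. A group of 4 probe sets, all annotated with the same complementary DNA clone, gave nearly the same values, 0.68 on A, 1.35 on B and from -0.13 to -0.12 with IL-3. The other 4 lay between -0.23 and 0.14 on A and between 0.06 and 0.31 on B. With the RefSeq probe set alone, a choice made after seeing the data, Taf1d was called higher at 0.66. Which RNA the other probe sets read was not tested.

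**Figure D2:**
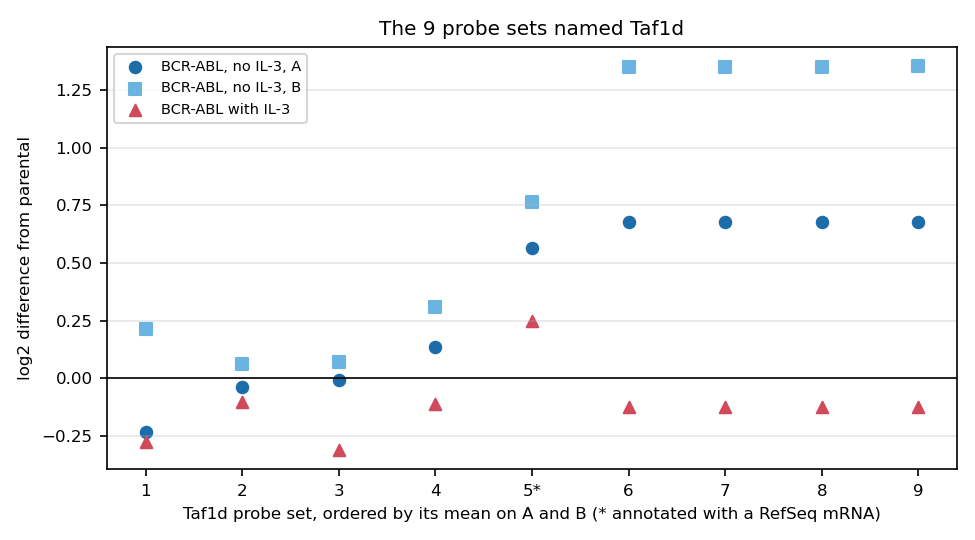
Log2 difference from the parental array (y axis) of the 9 probe sets named Taf1d (x axis, ordered by their mean on A and B) on A, B and the BCR-ABL array with IL-3. Probe sets 6 to 9 share 1 pattern near 0.68, 1.35 and -0.12, and probe set 5, marked with a star, is the one annotated with a RefSeq messenger RNA.

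Box C/D particles methylate ribosomal RNA and H/ACA particles convert uridine to pseudouridine in it. Of their 8 genes 5 were called higher and 0 lower, with a median of 0.65. Nolc1, a phosphoprotein that chaperones both kinds of particle, was the highest, at 1.13 on A, 1.03 on B and 0.74 with IL-3. The mean rise was 2.11-fold (log2 1.08, SE 0.15, adjusted p = 0.000157). Dkc1, the pseudouridine synthase, stood at 0.80 on A, 0.86 on B and 0.28 with IL-3, and rose 1.78-fold without IL-3. Nop56 and Nop58, the paired core proteins of the box C/D particle, were close to each other. Nop56 stood at 0.80, 0.75 and 0.60 and Nop58 at 0.69, 0.75 and 0.42 on A, B and the array with IL-3. Nhp2, an H/ACA core protein, was called at 0.58. The remaining 3 missed the threshold with A and B still above the parental level. Nop10, the smallest H/ACA protein, had a mean of 0.51 (adjusted p = 0.0534 by limma). Fbl, the methyltransferase of the box C/D particle, stood at 0.35 on A, 0.52 on B and 0.39 with IL-3. Gar1, the fourth H/ACA protein, stood at 0.35, 0.50 and 0.27.

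Small subunit genes encode the processome that forms on the precursor RNA and the factors that mature the particle. Of 16 genes 13 were called higher and 0 lower, with a median of 0.75 and a range of 0.39 to 1.35. Rrp9, a protein specific to the U3 particle, was the highest of all 48 genes, at 1.35 on both A and B and 1.15 with IL-3. It rose 2.55-fold (SE 0.15 in log2, adjusted p = 1.25e-05) and ranked 115th of the 19935 genes by its increase. Utp20, a large scaffold protein of the processome, stood at 0.86 on A, 0.93 on B and 0.34 with IL-3. Its rise without IL-3 was 1.86-fold (adjusted p = 0.000912 by limma).

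Of the 48 genes 4 encode components of UTP-A, a subcomplex that links processing to transcription, and these 4 passed the test, although Wdr43 lost the call after centring over probe sets. Wdr75 stood at 0.84, 0.92 and 0.63 on A, B and the array with IL-3, and the mean differences of Heatr1, Utp15 and Wdr43 were 0.81, 0.74 and 0.57. Tsr1, a factor of the late small subunit precursor, stood at 0.88, 0.75 and 0.58. Ltv1, another late factor, had a mean of 0.81. Noc4l and Nop14, which bind each other, were at 0.77 and 0.75, and Rrp12, an export factor, at 0.71. Utp18 was at 0.60, with a wide spread from 0.42 on A to 0.79 on B, and the GTPase Bms1 was also at 0.60. The genes that missed the threshold were Utp14a, a processome protein, at 0.54 (adjusted p = 0.053), the helicase Ddx10 and the nuclease Nob1. Ddx10 stood at 0.36 on A, 0.61 on B and 0.50 with IL-3. Nob1, which makes the final cut at the end of 18S RNA, stood at 0.37, 0.41 and 0.39, and its 3 arrays lay close together.

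Large subunit genes were the most uneven. Of 14 genes 10 were called higher and 0 lower, with a median of 0.69 and a range of 0.04 to 1.26. Mrto4, a relative of the stalk protein P0 that holds its place on the precursor, stood at 1.20 on A, 1.31 on B and 0.94 with IL-3. It rose 2.39-fold (SE 0.15 in log2, adjusted p = 3.15e-05), and its 2 probe sets differed by only 0.01 on the mean of A and B. Bop1 stood at 1.18, 1.12 and 0.81 and rose 2.22-fold. Nip7, a factor of large subunit RNA processing, stood at 0.92, 1.02 and 0.69 and rose 1.96-fold. Nop2, a methyltransferase of the large subunit RNA, stood at 1.04, 0.79 and 0.70. The other called genes lay between 0.61 and 0.75, namely the nucleolar GTPase Gnl3 (0.75), Rrp1b (0.74), the helicase Ddx18 (0.70), Rrs1 (0.68), Nop16 (0.66) and Noc3l (0.61). Rrs1 was the 1 gene of the 48 marked as dim, a mark that can miss dim probe sets.

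Bop1, Pes1 and Wdr12 encode the 3 proteins of the PeBoW complex, and their transcripts differed. While Bop1 was more than doubled on both arrays without IL-3, Pes1 stood at 0.24 on A, 0.30 on B and 0.14 with IL-3 and did not pass (interval of 95% from -0.05 to 0.59). Wdr12 stood at -0.10 on A, 0.18 on B and -0.27 with IL-3 and had no settled direction (interval from -0.30 to 0.39). Its 2 probe sets had means of -0.08 and 0.17. The GTPase Gnl2 stood at 0.15, -0.03 and 0.01, and Nle1, which works with the remodelling enzyme midasin, at 0.15, 0.09 and 0.10. Differences between the members of a complex were not tested.

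The 4 nucleolar genes of several steps split evenly, with 2 called higher. Mybbp1a, a nucleolar partner of polymerase I, stood at 1.02 on A, 0.95 on B and 0.76 with IL-3 and rose 1.97-fold (adjusted p = 0.000379 by limma). Ddx21, a helicase that acts on precursor RNA and its transcription, stood at 0.89, 1.03 and 0.76. Ncl, nucleolin, stood at 0.32, 0.62 and 0.10 and missed the threshold (adjusted p = 0.106 by limma). Npm1, nucleophosmin, stood at -0.02 on A, 0.50 on B and 0.16 with IL-3. Its gap of 0.52 between A and B was the widest of the 48 genes, followed by Taf1d at 0.41 and Utp18 at 0.38. Over the 48 genes the SD of the difference between B and A was 0.17, beside 0.20 over all genes.

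**Figure D3:**
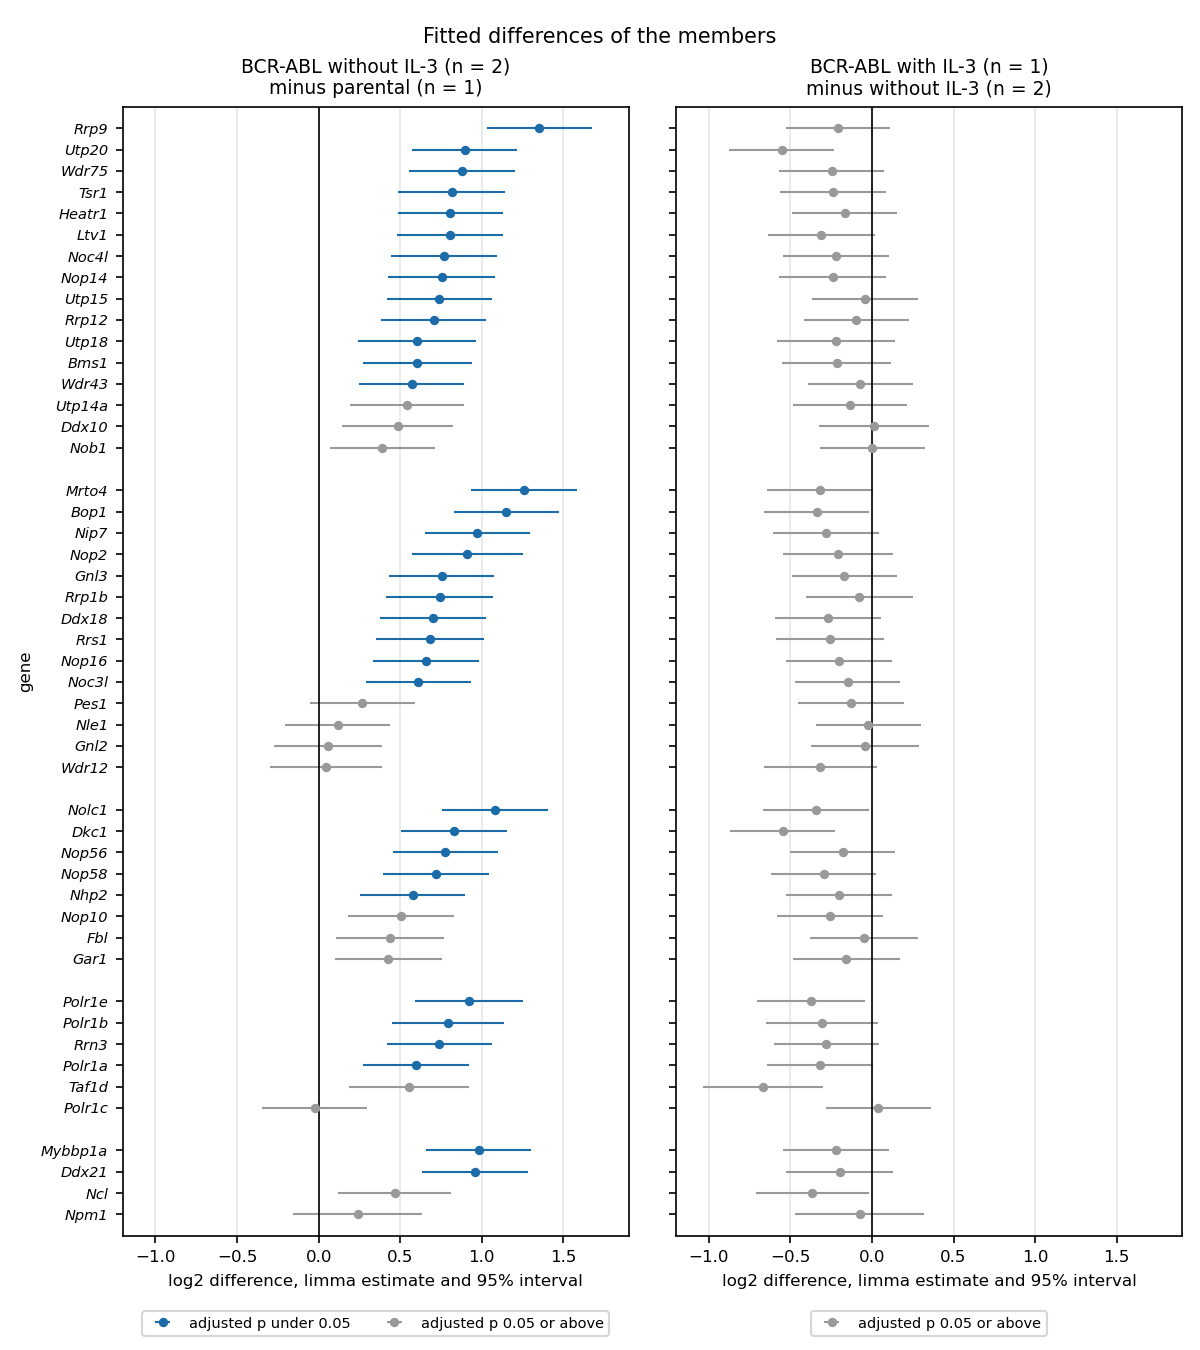
Fitted log2 differences (x axis) with 95% intervals for each of the 48 genes (y axis), for BCR-ABL without IL-3 minus parental (left) and BCR-ABL with IL-3 minus without (right). Blue marks genes at an adjusted p under 0.05, which are 34 on the left and 0 on the right.

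With IL-3 added to BCR-ABL cells most of the transcripts lay between the parental level and that without IL-3, but no single gene passed the test. The array with IL-3 lay below both A and B for 39 of the 48 genes, against 25.5% of all genes, between them for 9 and above both for 0. The median difference was -0.22 from the mean of A and B, beside 0.03 over all genes, and -0.19 from A and -0.26 from B taken alone. Limma called 0 of the 48 genes, against 0.00502% of all genes (1 of 19935), and the robust fit also called 0. At an unadjusted p under 0.05 there were 7 of the 48 genes, all lower, against 3% of all genes that were lower at that level. These 7 were Taf1d, Utp20, Dkc1, Polr1e, Ncl, Nolc1 and Bop1.

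By role the medians with IL-3 against without were -0.31 for polymerase I, -0.23 for box C/D and H/ACA, -0.21 for small subunit, -0.21 for large subunit and -0.21 for the genes of several steps. Taf1d had the widest gap, -0.67 (interval of 95% from -1.04 to -0.30), subject to the disagreement of its probe sets. Utp20 followed at -0.55 (interval from -0.88 to -0.23, adjusted p = 0.478 by limma) and Dkc1 at -0.55 (interval from -0.87 to -0.22, adjusted p = 0.478 by limma). For Utp20 and Dkc1 the array with IL-3 was nearer to the parental array than to A or B. The genes with the least change were Nob1 at 0.0017 and Ddx10 at 0.01, both of which turned negative under either centring. Polr1c was at 0.04 and fell just below 0 when arrays were centred over genes. A and B serve in both comparisons, so an upward error in them raises the first difference and lowers the second.

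The array with IL-3 set directly against the parental array is 1 array against 1, with no replicate check and no p-value. The value was above the parental one for 46 of the 48 genes, with a median of 0.46. The median over all genes was 0.0085, so more of all genes also lay above the parental array than below it. Their exact share was not counted, so the 46 have no such share beside them. At least 1.5-fold higher were 14 of the 48, against 3.3% of all genes. They were 5 of 16 small subunit genes, 5 of 14 large subunit genes, 2 of 8 box C/D and H/ACA genes, 2 of 4 genes of several steps and 0 of 6 polymerase I genes. Rrp9 was the 1 gene at 2-fold or more (2.21-fold), followed by Mrto4 (1.92-fold) and Bop1 (1.76-fold). Wdr12 and Taf1d were the 2 genes below the parental array. This comparison shares the parental array with the first, so the medians of 0.71 and 0.46 are values side by side and not independent of each other.

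Other genes of the pathway were taken from lists chosen by function. Of 35 other small subunit genes 16 were called higher without IL-3 and 0 lower, with a median of 0.48. Pno1, a partner of Nob1, rose by 1.42 (log2), Bysl by 1.06 and Nol10 by 1.03. Of 36 other large subunit genes 15 were called higher and 0 lower, with a median of 0.48. Among them midasin, Mdn1, was at 1.08, the methyltransferase Ftsj3 at 0.97 and the GTPase Gtpbp4 at 0.93. Of 10 further genes of nucleolar particle assembly 6 were called higher and 0 lower (median 0.57), with Nufip1 at 0.66, Naf1 at 0.61 and Ruvbl1 at 0.60.

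Other polymerase I genes had a lower median than the 6 above, 0.17 against 0.67, a difference that was not tested. Of 14, which include the subunits shared with other polymerases and the architectural factor Ubtf, 2 were called higher, Polr2l (0.87) and Taf1a (0.71), values within the range of the 6. Polr2f, at 0.45, did not pass. Of 10 RNA exosome genes, which trim the precursor, 3 were called higher (median 0.40), namely Dis3 (1.04), Exosc1 (0.92) and Exosc2 (0.65). Of 12 polymerase III genes Polr3g was called higher (0.53) and Maf1, a repressor of that polymerase, lower (-0.58), while Polr3d at 0.51 did not pass, and the median was 0.15. Of 7 polymerase II subunits 0 were called by limma, also in the robust fit, and 1 had an unadjusted p under 0.05. Their median was 0.12, and the highest values were those of Polr2g (0.42), Polr2c (0.16) and Polr2d (0.13).

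Of 9 reference genes, used as a gauge of general shifts, Gusb was called higher (0.58), and the median was 0.11, with Hprt at 0.38 and B2m at 0.32 not called. Of the others Pgk1 and Sdha were below the parental level, at -0.26 and -0.23, and were not called either. Without genes of several probe sets the median was 0.23. With IL-3 against without, the medians of these lists ran from -0.08 for polymerase II and -0.09 for reference genes to -0.22 for the exosome. Leaving out A moved the polymerase II median to -0.19 and the reference median to -0.14, and leaving out B moved the latter to -0.04. Limma called 0 of their 133 genes, against 1 of all 19935 genes, and the robust fit also called 0 of them. An unadjusted p under 0.05 by limma was found for 13 of the 133, against 901 of all genes. The median of the reference genes lay on the same side of 0 as the 48 genes in both comparisons. The medians over all genes lay on the other side, at -0.04 without IL-3 against parental and 0.03 with IL-3 against without. The part of a general shift in the values of the 48 genes was not tested.

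**Figure D4:**
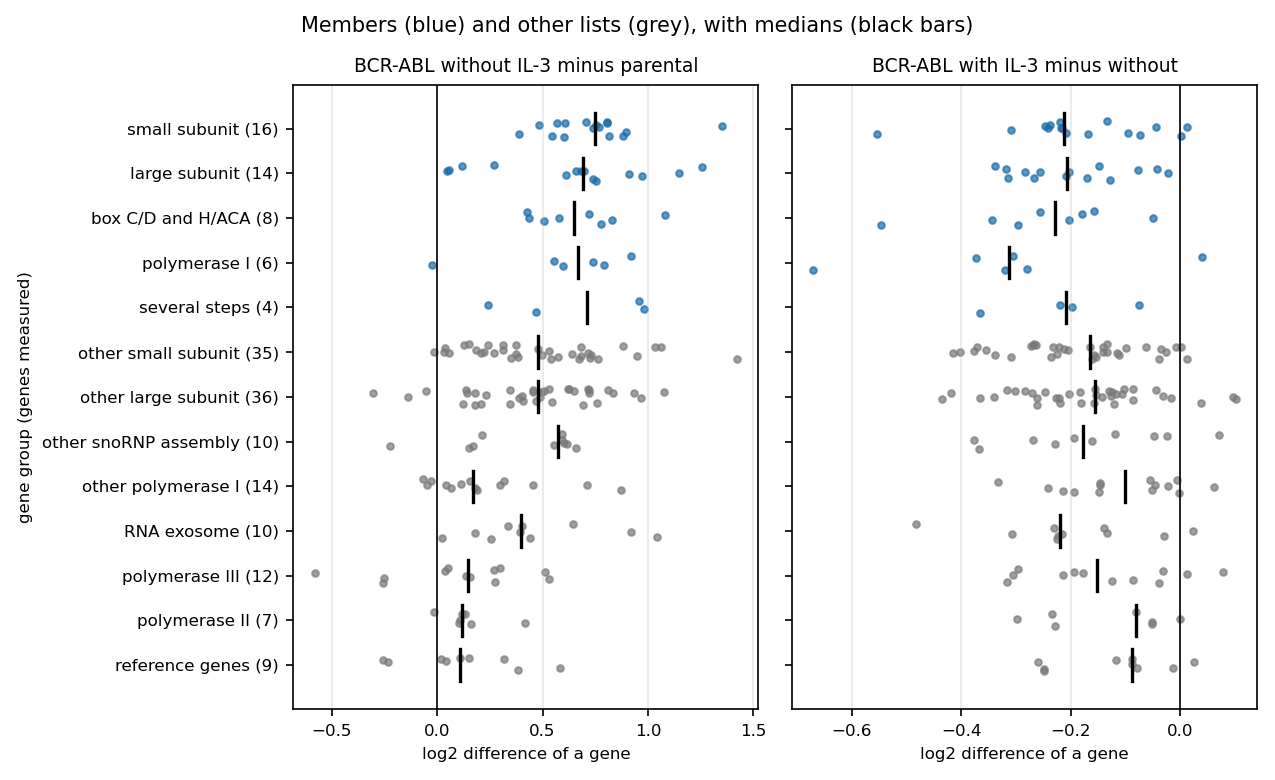
Log2 differences (x axes, each point 1 gene) by gene group (y axis, genes measured in brackets), for BCR-ABL without IL-3 minus parental (left) and BCR-ABL with IL-3 minus without (right). Black bars are medians. On the left the 5 roles of the 48 genes (blue) have medians from 0.65 to 0.75 and the reference genes one of 0.11.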

How the data were processed

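The values analysed are the series' table of 4 arrays. The authors deposited log differences from the parental array, as the values themselves show, and the base, not stated, was taken as log2, the usual scale of such array signals. Background correction, normalization and probe summary are not given in the sources used here. Of the values 99.5% are whole multiples of 2 to the power -21 (within 0.02 of a step plus rounding), which is how finely single precision stores a number from 4 to 8 whatever the base. An odd multiple marked a probe set as dim. A signal from 4 to 8 can also give an even multiple, so a dim probe set can go unmarked.

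Probe sets with 1 symbol in the platform annotation (21780, while 1605 had several and 5430 were not listed) were averaged by gene, giving 19935 genes. The 4 arrays entered a single linear model with a mean per group (limma 3.58.1 under R 4.3.3), with empirical Bayes (prior 16.4 degrees of freedom, 4.21 or 5.02 after centring over probe sets or genes), two-sided tests and Benjamini-Hochberg adjustment over all genes. The script was tested on simulated data. Members, lists, motifs and tests were chosen with earlier results of these data known. In each role the 4 largest and 2 smallest differences are given by array, with all called genes, those whose probe sets differ by over 1, the 3 largest gaps with IL-3 and between A and B, and 3 genes of each other list. Alternatives were centring over probe sets or, added after seeing the data, over genes, a threshold of 0.1, robust empirical Bayes, a 2-fold rule, other handling of probe sets (RefSeq ones alone also added later), leaving out dim ones, and leaving out A or B.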

Additional observations from a re-analysis of the deposited data

How the results depend on the processing

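Of the 48 genes 34 were called higher without IL-3. Under the alternatives this count was 23 after centring over probe sets, 30 after centring over genes (chosen after seeing the data), 34 in the robust fit, 38 at a threshold of 0.1, 37 with each gene's most different probe set, 36 with RefSeq probe sets alone (likewise), 33 of 47 without dim probe sets and 34 of 43 without genes of several probe sets. By the rule of 2-fold on every array it was 4. The median of 0.71 was 0.75 after either centring, and 0.69 to 0.74 when A or B was left out, which leaves 1 array a group and no test. With IL-3 against without, 0 genes were called under each of these alternatives, and the median of -0.22 lay between -0.26 (centring over genes) and -0.19, the range when A or B was left out being -0.26 to -0.19. Some signs turned. After centring over probe sets and over genes Ddx10 was at -0.023 and -0.032 and Nob1 at -0.034 and -0.043 with IL-3 against without, and Polr1c at 0.0075 and 0.011 without IL-3 against parental. With IL-3 against without Polr1c was at -0.0047 after centring over genes. Wdr12 was at -0.083 with its most different probe set. Without IL-3 against parental, leaving out B turned Npm1 to -0.02, Wdr12 to -0.10 and Polr1c to 0.02, and leaving out A turned Gnl2 to -0.03. With IL-3 against without, the 9 genes whose array with IL-3 lay between A and B turned when 1 of these was left out. Among them Npm1 was at 0.19 without B and Ddx10 at -0.11 without A. The others were Utp14a, Nob1, Rrp1b, Nle1, Gnl2, Fbl and Polr1c. With its RefSeq probe set alone Taf1d stood at 0.25 rather than -0.12 on the array with IL-3. Without dim probe sets the mast cell and basophil median turned from -0.18 to 0.31. Over all 19935 genes 1035 were called higher, 384 and 637 after the 2 centrings, where the prior degrees of freedom were 16.4, 4.21 and 5.02. It was 980 in the robust fit, 1112 with the most different probe set and 1056 with RefSeq probe sets alone. Without dim probe sets it was 969 of 12912 genes, and without genes of several probe sets 999 of 18937. At least 2-fold above parental on both A and B were 0.903% of all genes. At a threshold of 0.1 the calls over all genes were not counted. No paired analysis was possible because the groups share no replicate labels.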

Other observations

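Lineage markers were set beside the 48 genes, in the comparison of BCR-ABL without IL-3 with the parental array. Of 6 erythroid markers 3 were called lower by limma and 0 higher, against 2.87% and 5.19% of all genes, with a median of -0.58. The 3 called lower were the transcription factors Gfi1b (-0.96) and Klf1 (-0.92) and the erythropoietin receptor Epor (-0.70). Gfi1b stood at -0.62 on A and -1.29 on B. Gata1 (-0.46), Tfrc (0.12) and Alas2 (0.08) were not called. The robust fit called 2 of the 6. The list of mast cell and basophil genes had 10 measured and a median of -0.18, which turned to 0.31 over the 4 genes left without dim probe sets, so the list has no settled direction. In it the protease gene Cpa3 rose by 3.04 (log2) and Hdc, whose enzyme forms histamine, rose by 0.74, whereas Cma1, a chymase, was called lower (-0.90). Cma1 was among the genes left out with the dim probe sets, while Cpa3 and Hdc were kept. Of 9 B lineage markers 1 was called lower, Cd72 (-0.74), with Cd79b (-0.40) and Vpreb1 (-0.23) not called and a median of -0.14 (-0.24 without A and -0.05 without B). Of 11 neutrophil and monocyte markers 1 was called lower, Cebpe (-0.76), with Prtn3 (-0.35) and Itgam (0.20) not called and a median of -0.07 (-0.15 without A, -0.02 without B and -0.25 without dim probe sets). With IL-3 against without, limma called 0 of the 36 markers, against 1 of all 19935 genes, and the robust fit also called 0 of them. An unadjusted p under 0.05 by limma was found for 0 of the 36, against 901 of all genes. The list medians were 0.05, 0.07, -0.0026 and 0.06 in the order erythroid, mast cell and basophil, B lineage, and neutrophil and monocyte. When A or B was left out, each of these medians but that of mast cell and basophil genes changed sign. The part of these shifts in the values of the ribosome biogenesis genes was not tested.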
